A study of Mus musculus with 10 samples.

Results

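To determine how the genes that fold and check secretory proteins were expressed in the intestine of newborn mice expressing IL-23, the counts of 40 genes of the endoplasmic reticulum (ER) stress response and of ER protein folding were described in the jejunum of 5-day-old WT and KSR23 mice. The genes form a list of symbols that was drawn up with earlier results of these data known, and no value enters the rule itself. All 40 were found among the 24062 genes counted and passed the filter on low counts. There were 5 libraries of each group, all of strain C57BL/6 and taken at postnatal day 5. WT denotes wild-type mice. KSR23 denotes mice that carry an IL-23 cassette in the ROSA26 locus behind a floxed STOP signal, together with cre under the keratin 14 promoter, so that keratinocytes, and not the jejunum that was sequenced, were the intended source of IL-23. Values are counts scaled to a library total of 1000000 after TMM (trimmed mean) normalization (CPM), and fold changes are KSR23 over WT with their standard error (SE). Means of CPM are given ± SD over the 5 libraries of a group.

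The ER is where secreted and membrane proteins are threaded into a lumen, given N-glycans and disulfide bonds, folded by chaperones, and sent on or degraded. When unfolded protein builds up, 3 membrane sensors respond. IRE1 splices the Xbp1 messenger RNA so that it encodes an active transcription factor. ATF6 travels to the Golgi, where proteases free its transcription factor domain. PERK phosphorylates the translation factor eIF2 alpha, which lowers protein synthesis but lets ATF4 be translated, and other kinases that sense amino acid shortage or viral RNA reach ATF4 by the same route. In the gut, goblet and Paneth cells carry a heavy secretory load and depend on this response. Gene counts show neither the splicing of Xbp1 nor the phosphorylation of PERK or eIF2 alpha nor the cleavage of ATF6. In RNA of a whole tissue, fewer cells of a type and less RNA per cell cannot be told apart.

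Several regulatory sequences of the pathway are well known and were looked for in the members' promoters. The ER stress response element, the letters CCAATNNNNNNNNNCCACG bound by ATF6 and XBP1 with NF-Y, was searched on both strands in the 300 bases around each start site (250 before and 50 after) of the RefSeq promoter table (build GRCm38.p6). It was found in 9 of the 33 members in the table, against 29 of 16781 genes (0.173%). The 9 members were Hspa5, Hsp90b1, Calr, Canx, Pdia6, Dnajc3, Creld2, Syvn1 and Derl3. The windows of 5 of them are shown because they cover chaperones, an isomerase and a degradation enzyme with the same element. They read 5′ to 3′ on the strand of the gene, with the element in capitals, and an element on the other strand reads as its reverse complement.

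Hspa5 (chr2:34772020-34772048, plus strand): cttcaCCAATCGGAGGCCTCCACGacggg

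Canx (chr11:50325785-50325833, minus strand): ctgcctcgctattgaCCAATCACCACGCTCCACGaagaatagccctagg

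Calr (chr8:84847060-84847108, minus strand): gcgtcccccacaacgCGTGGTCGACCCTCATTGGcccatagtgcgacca

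Pdia6 (chr12:17266476-17266524, plus strand): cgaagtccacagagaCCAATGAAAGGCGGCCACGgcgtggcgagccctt

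Syvn1 (chr19:6046517-6046565, plus strand): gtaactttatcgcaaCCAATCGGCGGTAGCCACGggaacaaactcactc

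The related element II, ATTGGNCCACG, was found in Herpud1 and Dnajb11, and in 9 genes in all (0.0536%). The amino acid response element bound by ATF4 with C/EBP partners, TGATGNAA, is short and was found in 3.98% of genes. It was present in 6 of the 33 members (Asns, Chac1, Atf3, Herpud1, Trib3 and Txndc5), and the core of the XBP1-bound unfolded protein response element, TGACGTGG, was found in Txndc5 and in 0.882% of genes. The windows of the 2 members with the amino acid response element whose counts rose in KSR23 are shown with that of Herpud1, in which the capitals mark first the amino acid response element and then element II.

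Asns (chr6:7693214-7693243, minus strand): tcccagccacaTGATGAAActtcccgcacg

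Chac1 (chr2:119351034-119351071, plus strand): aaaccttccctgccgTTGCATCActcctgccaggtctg

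Herpud1 (chr8:94386302-94386402, plus strand): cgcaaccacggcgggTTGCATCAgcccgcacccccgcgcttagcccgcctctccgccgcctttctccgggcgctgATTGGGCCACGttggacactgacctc

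A match is a run of letters and not a measured binding site. Of the 9 members with the ER stress response element, Canx was called between the groups and the other 8 were not. Of the 6 with the amino acid response element, Asns and Chac1 were called and the other 4 were not. All 3 were called higher by the likelihood ratio test described below, by which 9.74% of all genes were called higher and 8.76% lower. With so few members, these counts say nothing about the elements. Members whose promoters were not searched, being absent from the promoter table used here, were Ern2, Atf6, Hyou1, Manf, Derl1, Sec11c and Ostc.

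Library totals ran from 25.5 to 60.9 M counts (M, 1000000), and the 40 members together took 0.492 to 1.12% of the counts in WT libraries and 0.518 to 1.48% in KSR23 libraries. The libraries went with their labels, since Reg3b, an antimicrobial lectin induced by IL-22, took at most 0.0799% of the counts in WT and at least 4.54% in KSR23. Before the groups are compared, 3 features of the libraries bear on the members. Firstly, many transcripts were low in WT replicate 1 and in KSR23 replicate 3. Of 5704 genes outside the members with a mean above 20 CPM, 419 (7.35%) stood under 0.25 times their group median in WT replicate 1 and 531 (9.31%) in KSR23 replicate 3, against 0 to 25 genes in each of the other 8 libraries. The same 329 genes were low in both, which is 78.5% of the first set and 62.0% of the second. Their transcripts had a median GC content of 54.9%, against 49.4% for the rest. Secondly, replicates 4 and 5 of each group lay between the other 3 for most genes. They held the highest or lowest value of their group for 8.75 to 14.7% of 9766 genes. The share for exchangeable libraries is 40%, and replicates 1 to 3 had 48.9 to 68.1%. For this count, values were scaled to library totals without TMM factors and had a mean above 5 CPM. Thirdly, 185 and 86 of the 5704 genes stood over 4 times their group median in KSR23 replicates 1 and 4. Each of the other 8 libraries had 19 or fewer. KSR23 replicates 1 and 4 also held 9035 and 4330 Y-linked counts, against 9, 1 and 1 in KSR23 replicates 2, 3 and 5. The p-values, SDs and SEs rest on the spread between these 10 libraries, taken as independent. If replicates 4 and 5 are not independent of the other 3, that spread is too narrow and the adjusted p-values are too small. Results are therefore also given for replicates 1 to 3 alone and for the 8 libraries without WT replicate 1 and KSR23 replicate 3.

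The first feature was also seen among the members. In WT replicate 1, 10 of the 40 members stood under 0.25 times their group median, as did 11 in KSR23 replicate 3, and of the 30 members with a mean above 20 CPM there were 7 in each. At 0.5 times the group median, WT replicate 1 had 17 of the 40 members and 13 of the 30, against 17.9% of the 5704 other genes, and KSR23 replicate 3 had 17 and 11, against 18.5%. There were 13 members under 0.5 times in both. WT replicate 5 had 9 members under this limit and KSR23 replicate 5 had 4, and each of the other 6 libraries had 0 or 1. P4hb, the protein disulfide isomerase that was the most abundant member per kb of transcript (844 CPM per kb in WT), showed the range. P4hb was counted at 631, 3881, 3784, 2522 and 1252 CPM in WT replicates 1 to 5 and at 3571, 5799.6, 619, 4054 and 2907 CPM in KSR23 replicates 1 to 5. Its 3 lowest values were those of KSR23 replicate 3 and WT replicates 1 and 5, and the groups overlapped. Among the 13 members low in both libraries 1 was called between the groups (Chac1), and among the other 27 there were 10. The standard error of the log2 fold change had a median of 0.57 in the first group of members and 0.33 in the second. The third feature was seen in Xbp1, Dnajc3 and Txndc5, which were highest within KSR23 in replicates 1 and 4. What lies behind the low and the high values was not tested.

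**Figure D1:**
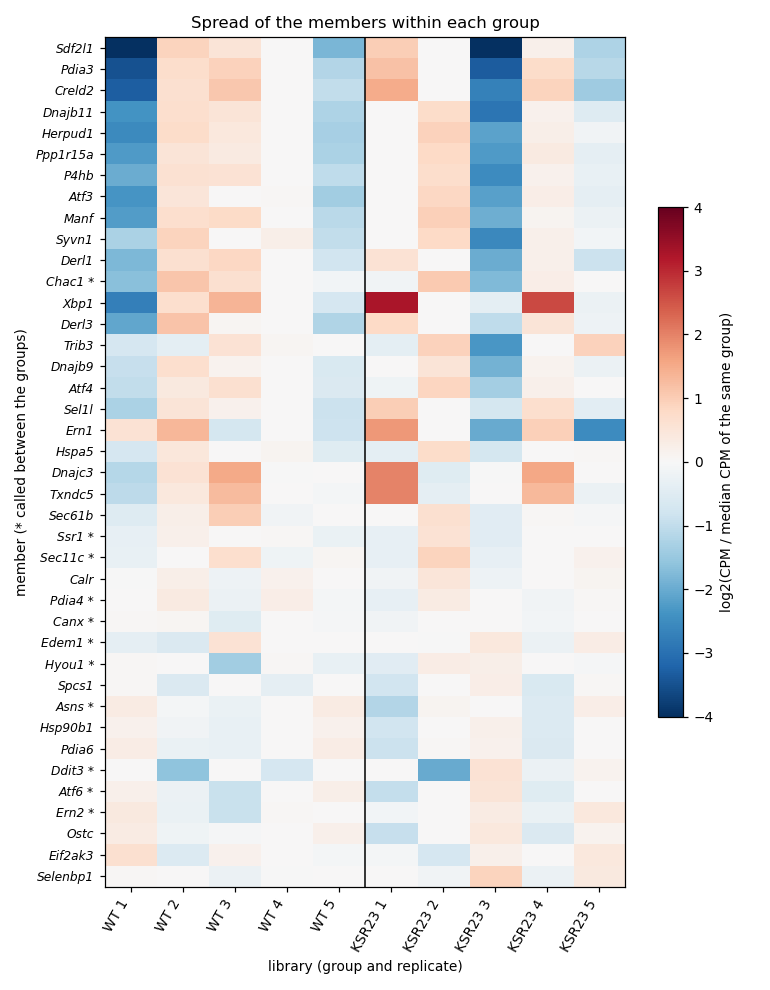
Spread of the 40 members within each group, as log2 of CPM over the median CPM of the same group (colour, cut at -4 and 4), with the 10 libraries in columns and members in rows ordered by their mean value in WT replicate 1 and KSR23 replicate 3. The upper rows are blue in WT replicate 1 and KSR23 replicate 3, and fewer of them are blue in replicate 5 of either group, while most members called between the groups (asterisks) lie in the lower rows.

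Between KSR23 and WT, 10 of the 40 members were called higher and 1 was called lower by edgeR's likelihood ratio test at an adjusted p under 0.05, with p-values adjusted over all 17632 genes tested. Over all genes, 9.74% were called higher and 8.76% lower, and over the 9737 genes with a mean above 5 CPM 12.9% were called higher and 8.05% lower. edgeR's other test, the quasi-likelihood F test, called the same 10 members higher and the same 1 lower, against 8.47% and 6.91% of all genes. The groups did not overlap for 11 members, against 14.4% of all genes. The log2 fold change was above 0 for 32 of the 40 members, with a median of 0.52. Over all genes tested it was above 0 for 51.1%, with a median of 0.03, and over those with a mean above 5 CPM for 57.6%, with a median of 0.13. In the 8 libraries, 11 members were called higher and 1 lower (9.87% and 9.5% of all genes), and of the 11 calls on all libraries 10 stood there. Pdia4 was lost, and Ppp1r15a and Syvn1 were gained. In replicates 1 to 3 alone, 3 were called higher and 1 lower by the likelihood ratio test (1.95% and 1.31% of all genes). The F test called 0 of the 40 there, with 9 at an unadjusted p under 0.05. The log2 fold changes of the 11 members in replicates 1 to 3 were 2.05 for Hyou1, 1.18 for Canx, 0.76 for Pdia4, 1.39 for Ern2, 1.52 for Atf6, 2.98 for Chac1, 2.22 for Asns, 1.18 for Edem1, 0.97 for Ssr1, 0.97 for Sec11c and -2.56 for Ddit3. Of 26 alternative settings, the calls of Hyou1, Chac1, Asns and Ddit3 stood in 25 and that of Canx in 24. Those of Pdia4, Atf6, Sec11c, Edem1 and Ssr1 were lost when Y-linked counts entered as a covariate. These counts were not balanced between the groups, since KSR23 replicates 2, 3 and 5 held 9, 1 and 1 and the other 7 libraries 492 or more. With the covariate the log2 fold change was 0.65 (adjusted p = 0.283) for Pdia4, against 0.68 without the covariate, and 1.18 (adjusted p = 0.214) for Atf6, against 1.26. It was 0.77 (adjusted p = 0.168) for Edem1, 0.79 (adjusted p = 0.172) for Ssr1 and 0.53 (adjusted p = 0.431) for Sec11c, against 1.11, 0.96 and 0.98.

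**Figure D2:**
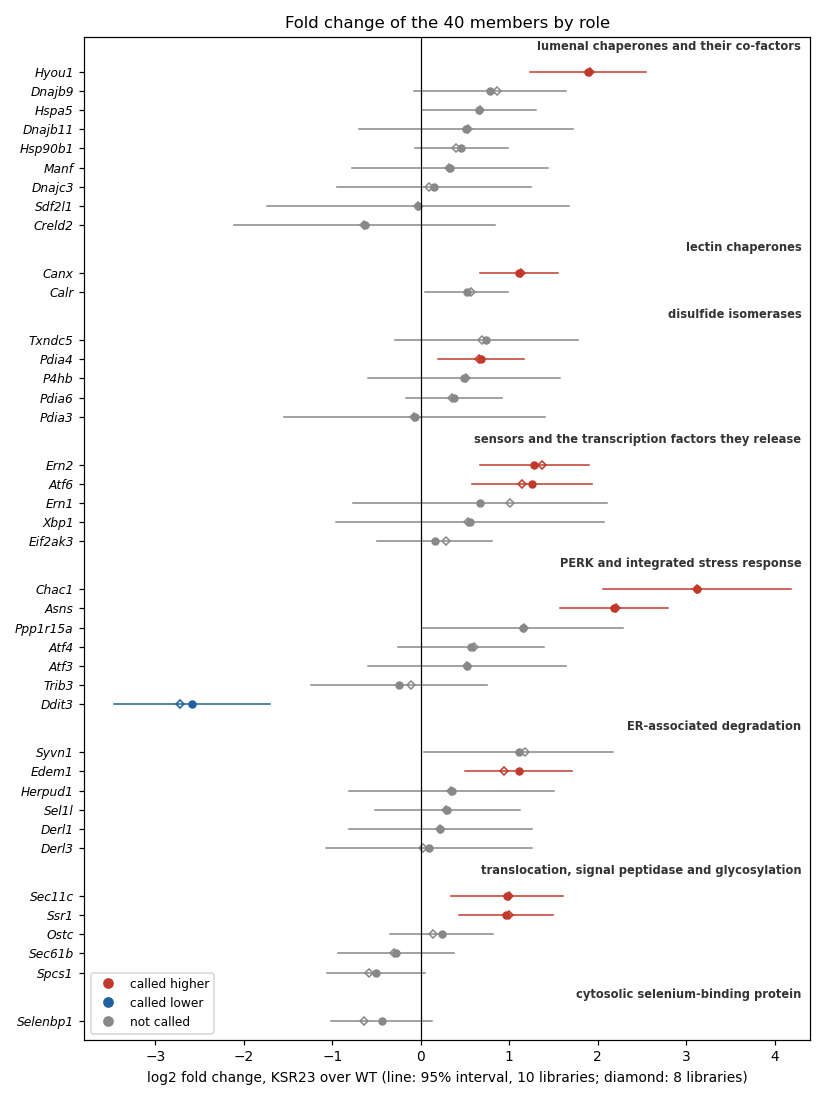
Log2 fold change of the 40 members, KSR23 over WT, grouped by role (filled points, with lines for the 95% interval from the model on 10 libraries; open diamonds, the 8 libraries without WT replicate 1 and KSR23 replicate 3). Red marks the 10 members called higher, blue the 1 called lower (Ddit3), and grey the 29 not called, 16 of which have intervals wider than 2 log2 units.

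Among the sensors of ER stress, Ern2 and Atf6 rose and the others were not called. Ern2 encodes IRE1 beta, the form of IRE1 found in mucosal epithelia and in goblet cells in particular (chr7:122169893-122186207, minus strand, mm10). Ern2 was counted at 12.8, 8.03, 5.17, 9.91 and 9.69 CPM in WT replicates 1 to 5 and at 19.4, 20.7, 26.1, 17.2 and 27.5 CPM in KSR23 replicates 1 to 5. Every KSR23 library was above every WT library. Ern2 rose from a WT mean of 9.11 ± 2.78 CPM to a KSR23 mean of 22.2 ± 4.43 CPM (SD, n = 5 each; log2 fold change 1.28, SE 0.31, adjusted p = 9.23e-04, 0.00718 by the F test). Atf6 (chr1:170704674-170867771, minus strand) encodes the sensor that is cleaved in the Golgi. Atf6 was counted at 25.3, 18.6, 11.9, 21.8 and 25.6 CPM in WT replicates 1 to 5 and at 27.3, 53.1, 75.7, 37.6 and 53.9 CPM in KSR23 replicates 1 to 5. The lowest KSR23 value, in replicate 1, was just above the highest WT value, in replicate 5. Atf6 rose from a WT mean of 20.6 ± 5.67 CPM to a KSR23 mean of 49.5 ± 18.4 CPM (SD, n = 5 each; log2 fold change 1.26, SE 0.35, adjusted p = 0.00365, 0.0159 by the F test).

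Ern1, Eif2ak3 and Xbp1 were not called. Ern1 encodes IRE1 alpha, the ubiquitous form. Ern1 was counted at 0.991, 1.66, 0.404, 0.662 and 0.375 CPM in WT replicates 1 to 5 and at 3.21, 0.967, 0.238, 1.88 and 0.169 CPM in KSR23 replicates 1 to 5. It was scarce in all libraries, the groups overlapped, and the log2 fold change was 0.67 (adjusted p = 0.587) with an SE of 0.73. Eif2ak3 encodes PERK. Eif2ak3 was counted at 5.57, 2.48, 4.04, 3.60 and 3.42 CPM in WT replicates 1 to 5 and at 3.97, 2.64, 4.85, 4.21 and 5.65 CPM in KSR23 replicates 1 to 5. These values overlapped from end to end, with a log2 fold change of 0.16 (adjusted p = 0.804) and a 95% interval of -0.49 to 0.81. Xbp1 encodes the target of IRE1. Xbp1 was counted at 15.5, 164, 265, 103 and 64.3 CPM in WT replicates 1 to 5 and at 468, 49.0, 37.6, 305 and 42.0 CPM in KSR23 replicates 1 to 5. Its spread within each group was over 10-fold, with WT replicate 3 and KSR23 replicates 1 and 4 highest, and the log2 fold change of 0.56 (adjusted p = 0.685) had an interval of -0.96 to 2.07. Per kb of transcript in WT, Xbp1 stood at 57.5 CPM, Ern2 at 3.13, Atf6 at 2.85, Eif2ak3 at 0.846 and Ern1 at 0.118.

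Markers of secretory cells were counted beside Ern2. Of 12 goblet cell genes, Ern2 and Agr2 among them, 8 were called higher (7 by the F test) and 0 lower, and their summed level was 1590.5 to 2218 CPM in WT and 2979 to 5652 CPM in KSR23. The most abundant were Tff3, Zg16 and Spink4, of which Tff3 did not pass the test (log2 fold change 0.24, adjusted p = 0.614) and Zg16 rose from 115 ± 9.37 to 1077 ± 496 CPM (log2 fold change 3.23, adjusted p = 6.15e-17). Of 6 Paneth cell genes, 3 were called higher and 1 lower (summed level 270.3 to 456 CPM in WT and 889 to 1957 CPM in KSR23). Lyz1 and Itln1 were among the 3 that rose, and Defa24 had a log2 fold change of -0.08 (adjusted p = 0.908). The 1 called lower was Ang4, which fell without overlap from a mean of 62.7 CPM in WT to 34.7 CPM in KSR23 (log2 fold change -0.85, adjusted p = 0.00921). Of 9 plasma cell genes, 2 of them members (Xbp1 and Derl3), 1 was called, Prdm1, which was higher. The part of these cell types in the members' changes was not tested.

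In the PERK arm and the wider integrated stress response, 2 genes of amino acid and glutathione metabolism rose many-fold, the gene of the transcription factor CHOP fell, and Atf4 itself was not called. Asns encodes asparagine synthetase, a classical ATF4 target (chr6:7675169-7693254, minus strand). Asns was counted at 46.9, 35.6, 31.0, 37.6 and 46.7 CPM in WT replicates 1 to 5 and at 90.4, 219.5, 204, 141 and 244 CPM in KSR23 replicates 1 to 5. The lowest KSR23 library, replicate 1, was above the highest WT library. Asns rose from a WT mean of 39.6 ± 7.03 CPM to a KSR23 mean of 179.9 ± 62.9 CPM (SD, n = 5 each), a change of 4.54-fold (log2 fold change 2.18, SE 0.31, adjusted p = 1.28e-09, 3.74e-04 by the F test). Chac1 encodes an enzyme that breaks down glutathione and is induced by ATF4 (chr2:119351229-119354381, plus strand). Chac1 was counted at 0.155, 1.06, 0.771, 0.490 and 0.451 CPM in WT replicates 1 to 5 and at 4.27, 9.61, 1.39, 5.58 and 4.69 CPM in KSR23 replicates 1 to 5. Chac1 was scarce, with as few as 5 counts in a WT library, and every KSR23 library was still above every WT library. It rose from a WT mean of 0.585 ± 0.344 CPM to a KSR23 mean of 5.11 ± 2.97 CPM (SD, n = 5 each; log2 fold change 3.12, SE 0.54, adjusted p = 2.38e-06, 0.00299 by the F test). Asns and Chac1 are the 2 called members with the amino acid response element shown above.

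Ddit3 encodes CHOP, which promotes death of cells under prolonged ER stress and is itself an ATF4 target (chr10:127290774-127296288, plus strand). Ddit3 was counted at 125, 41.0, 126, 78.3 and 128 CPM in WT replicates 1 to 5 and at 17.8, 4.35, 26.4, 15.2 and 19.5 CPM in KSR23 replicates 1 to 5. The lowest WT library, replicate 2, was above the highest KSR23 library, replicate 3. Ddit3 fell from a WT mean of 99.8 ± 39.0 CPM to a KSR23 mean of 16.6 ± 8.02 CPM (SD, n = 5 each), a 6.00-fold decrease (log2 fold change -2.58, SE 0.45, adjusted p = 2.16e-06, 0.00274 by the F test). Its exons overlap those of Mars and Gm4189 on the opposite strand and the annotation holds 2 coding records under its symbol. The library kit does not mark strand, so that reads in the overlap could not be assigned by strand. In WT, Ddit3 stood at 112 CPM per kb of transcript, above Atf4 at 34.2, and in KSR23 at 18.7, below Atf4 at 50.6.

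Atf4 encodes the transcription factor at the centre of this arm and is controlled mainly in translation. Atf4 was counted at 29.5, 76.9, 90.7, 58.5 and 39.6 CPM in WT replicates 1 to 5 and at 74.1, 151, 32.3, 96.2 and 83.0 CPM in KSR23 replicates 1 to 5. The groups overlapped, with WT replicate 1 and KSR23 replicate 3 lowest in their groups (log2 fold change 0.56, SE 0.42, adjusted p = 0.389, 95% interval -0.26 to 1.39). Atf3, a stress-induced repressor, had a log2 fold change of 0.52 (adjusted p = 0.59), and Trib3, a pseudokinase that restrains ATF4 and CHOP, one of -0.25 (adjusted p = 0.799). Ppp1r15a encodes GADD34, which returns eIF2 alpha to the unphosphorylated state. Its log2 fold change was 1.15 (adjusted p = 0.161) on all libraries, 1.41 (adjusted p = 0.0305) without KSR23 replicate 3 and 1.16 (adjusted p = 0.0307) in the 8 libraries, where it did not pass the F test (adjusted p = 0.0598). The calls of Asns, Chac1 and Ddit3 were the ones that also stood in replicates 1 to 3 alone, together with that of Hyou1 (adjusted p = 0.00557, 0.0416, 0.0341 and 0.0341 by the likelihood ratio test).

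Of the lumenal chaperones, Hyou1 was the 1 member of 9 that was called. It encodes GRP170, a large Hsp70 relative that exchanges the nucleotide of BiP (chr9:44379490-44392369, plus strand). Hyou1 was counted at 9.41, 9.16, 3.52, 9.56 and 7.51 CPM in WT replicates 1 to 5 and at 20.7, 35.1, 33.5, 28.4 and 27.7 CPM in KSR23 replicates 1 to 5. The lowest KSR23 value was over 2 times the highest WT value. Hyou1 rose from a WT mean of 7.83 ± 2.55 CPM to a KSR23 mean of 29.1 ± 5.66 CPM (SD, n = 5 each), a change of 3.71-fold (log2 fold change 1.89, SE 0.33, adjusted p = 1.40e-06, 0.0013 by the F test). Hspa5 encodes BiP, the chief lumenal chaperone, which also holds the sensors inactive. Hspa5 was counted at 546, 1191, 868, 931 and 618 CPM in WT replicates 1 to 5 and at 989, 2162, 797, 1286 and 1320.2 CPM in KSR23 replicates 1 to 5. KSR23 replicate 2 was highest and KSR23 replicates 1 and 3 lay within the WT range (log2 fold change 0.66, SE 0.33, adjusted p = 0.159, 95% interval 0.01 to 1.30). Per kb of transcript Hspa5 was far more abundant than Hyou1, with 226 against 1.74 CPM per kb in WT.

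The other 7 lumenal members were not called. Hsp90b1 encodes GRP94, the Hsp90 of the ER, and had a log2 fold change of 0.46 (adjusted p = 0.237), with 6.73% of its 75-base stretches shared with another gene. Among the J-domain co-factors of BiP, Dnajb9 (ERdj4) had a log2 fold change of 0.78 (adjusted p = 0.223), Dnajb11 (ERdj3) of 0.52 (adjusted p = 0.627) and Dnajc3 (p58IPK) of 0.15 (adjusted p = 0.893). Dnajb9 passed the threshold when KSR23 replicate 3, its lowest KSR23 library, was left out, at 1.02 (adjusted p = 0.0257). In the 8 libraries, without WT replicate 1 as well, it did not pass, at 0.86 (adjusted p = 0.0531, 0.0699 by the F test). Sdf2l1, which works with Dnajb11, Creld2 and Manf, both small ER proteins induced by stress, had values of -0.03 (adjusted p = 0.988), -0.63 (adjusted p = 0.625) and 0.33 (adjusted p = 0.753). Sdf2l1 ranged from 1.39 to 83.4 CPM within WT and from 1.87 to 87.0 CPM within KSR23, with WT replicate 1 and KSR23 replicate 3 at the bottom. The interval of its log2 fold change, -1.74 to 1.68, was therefore wide enough to hold changes of over 3-fold either way.

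Both lectin chaperones, which hold glycoproteins with a trimmed N-glycan until they fold, were higher in every KSR23 library than in any WT library. Canx encodes calnexin, the membrane-bound form (chr11:50293961-50325673, minus strand). Canx was counted at 318, 323, 221, 308 and 295 CPM in WT replicates 1 to 5 and at 594, 660.2, 652, 604 and 654 CPM in KSR23 replicates 1 to 5. The spread within KSR23 was small, and Canx rose from a WT mean of 293 ± 41.7 CPM to a KSR23 mean of 633 ± 31.1 CPM (SD, n = 5 each; log2 fold change 1.11, SE 0.23, adjusted p = 2.99e-05, 0.00148 by the F test). Calr encodes calreticulin, the soluble form (chr8:84841850-84846934, minus strand). Calr was counted at 467, 551, 404, 528 and 467 CPM in WT replicates 1 to 5 and at 602, 917, 574, 658 and 715 CPM in KSR23 replicates 1 to 5. The gap between the groups was narrow, and Calr did not pass the test (log2 fold change 0.52, SE 0.24, adjusted p = 0.118, 0.0934 by the F test). Without overlap and without a call, it was the 1 member of this kind. Canx and Calr, like Hspa5, are among the members with the ER stress response element.

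Of the disulfide isomerases, which form and reshuffle disulfide bonds, Pdia4 was the 1 of 5 that was called. It encodes ERp72 (chr6:47796141-47813430, minus strand). Pdia4 was counted at 164, 210.1, 138, 195 and 155 CPM in WT replicates 1 to 5 and at 221, 349, 275, 250.2 and 285 CPM in KSR23 replicates 1 to 5. The groups did not overlap, with WT replicate 2 just under KSR23 replicate 1. Pdia4 rose from a WT mean of 172 ± 29.6 CPM to a KSR23 mean of 276 ± 48.0 CPM (SD, n = 5 each; log2 fold change 0.68, SE 0.25, adjusted p = 0.0364, 0.0355 by the F test). This call was lost in the 8 libraries, at 0.66 (adjusted p = 0.0701), and when WT replicate 1, 3 or 5 or KSR23 replicate 2 or 5 was left out, with log2 fold changes of 0.66 (adjusted p = 0.0825), 0.61 (adjusted p = 0.101), 0.64 (adjusted p = 0.12), 0.63 (adjusted p = 0.0708) and 0.67 (adjusted p = 0.0933). Pdia3 (ERp57), the partner of the lectin chaperones, had a log2 fold change of -0.07 (adjusted p = 0.964), Pdia6 of 0.38 (adjusted p = 0.385), P4hb of 0.49 (adjusted p = 0.606) and Txndc5 (ERp46) of 0.74 (adjusted p = 0.362). Pdia3 was counted at 41.6, 764, 880.1, 467 and 207 CPM in WT replicates 1 to 5 and at 929, 411, 40.9, 678 and 189 CPM in KSR23 replicates 1 to 5. The range of Pdia3 within each group was thus about 20-fold, and its 2 lowest libraries, WT replicate 1 and KSR23 replicate 3, came from different groups. Exons of Pdia3 overlap Catsper2, those of Pdia6 overlap Atp6v1c2 and those of Txndc5 overlap Bmp6.

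In ER-associated degradation, by which misfolded proteins are drawn back into the cytosol and destroyed, Edem1 rose and the other 5 members were not called. Edem1 recognises trimmed glycans on proteins that failed to fold (chr6:108828641-108859356, plus strand). Edem1 was counted at 9.50, 8.20, 18.2, 12.1 and 12.2 CPM in WT replicates 1 to 5 and at 23.9, 23.8, 32.1, 20.4 and 29.4 CPM in KSR23 replicates 1 to 5. WT replicate 3 came nearest to the KSR23 range, and the groups did not overlap. Edem1 rose from a WT mean of 12.0 ± 3.84 CPM to a KSR23 mean of 25.9 ± 4.73 CPM (SD, n = 5 each; log2 fold change 1.11, SE 0.31, adjusted p = 0.00404, 0.0124 by the F test). The pair Sel1l and Syvn1, the adaptor and the ubiquitin ligase Hrd1 of the retrotranslocation complex, had log2 fold changes of 0.30 (adjusted p = 0.686) and 1.11 (adjusted p = 0.153). Syvn1 passed the threshold without KSR23 replicate 3, at 1.38 (adjusted p = 0.0124), and in the 8 libraries, at 1.18 (adjusted p = 0.022), with an adjusted p of 0.04997 by the F test. Herpud1, which assembles this complex, had a value of 0.35 (adjusted p = 0.751), and the derlins Derl1 and Derl3 had 0.22 (adjusted p = 0.831) and 0.09 (adjusted p = 0.94). Derl3, a form enriched in professional secretory cells, was near the limit of detection, with 0.124 to 1.13 CPM in WT and as few as 4 counts in a library.

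At the entry into the ER, Ssr1 and Sec11c rose. Ssr1 encodes a subunit of the translocon-associated protein complex (chr13:37966605-37994217, minus strand). Ssr1 was counted at 85.3, 123, 108, 111 and 89.9 CPM in WT replicates 1 to 5 and at 159, 298, 146, 201 and 202 CPM in KSR23 replicates 1 to 5. Every KSR23 library was above every WT library. Ssr1 rose from a WT mean of 103 ± 15.5 CPM to a KSR23 mean of 201 ± 59.4 CPM (SD, n = 5 each; log2 fold change 0.96, SE 0.27, adjusted p = 0.00455, 0.0138 by the F test). Sec11c encodes a catalytic subunit of signal peptidase, which removes signal peptides. Sec11c was counted at 38.3, 47.2, 74.9, 41.7 and 49.9 CPM in WT replicates 1 to 5 and at 71.4, 166, 70.2, 88.9 and 99.7 CPM in KSR23 replicates 1 to 5. WT replicate 3 was above KSR23 replicates 1 and 3, so that the groups overlapped. Sec11c rose from a WT mean of 50.4 ± 14.4 CPM to a KSR23 mean of 99.2 ± 39.2 CPM (SD, n = 5 each; log2 fold change 0.98, SE 0.32, adjusted p = 0.0199, 0.0362 by the F test), and its call was lost without WT replicate 1, 4 or 5 or KSR23 replicate 2, at 0.89 (adjusted p = 0.0613), 0.96 (adjusted p = 0.0613), 0.97 (adjusted p = 0.0614) and 0.76 (adjusted p = 0.0661). Sec61b, a small subunit of the translocon, Spcs1, another subunit of signal peptidase, and Ostc, a subunit of the oligosaccharyltransferase, had log2 fold changes of -0.28 (adjusted p = 0.629), -0.51 (adjusted p = 0.212) and 0.24 (adjusted p = 0.644). The first 2 of these share 10.1% and 8.8% of their 75-base stretches with other genes.

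Selenbp1 is listed with these genes but encodes a cytosolic selenium-binding protein with methanethiol oxidase activity. It was not called (log2 fold change -0.44, SE 0.29, adjusted p = 0.317). KSR23 replicate 3 held its highest value, 64.4 CPM, and the other 4 KSR23 libraries lay under the lowest WT library of 48.1 CPM. Since 29.9% of its 75-base stretches are shared with Selenbp2, part of its reads could not be assigned.

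**Figure D3:**
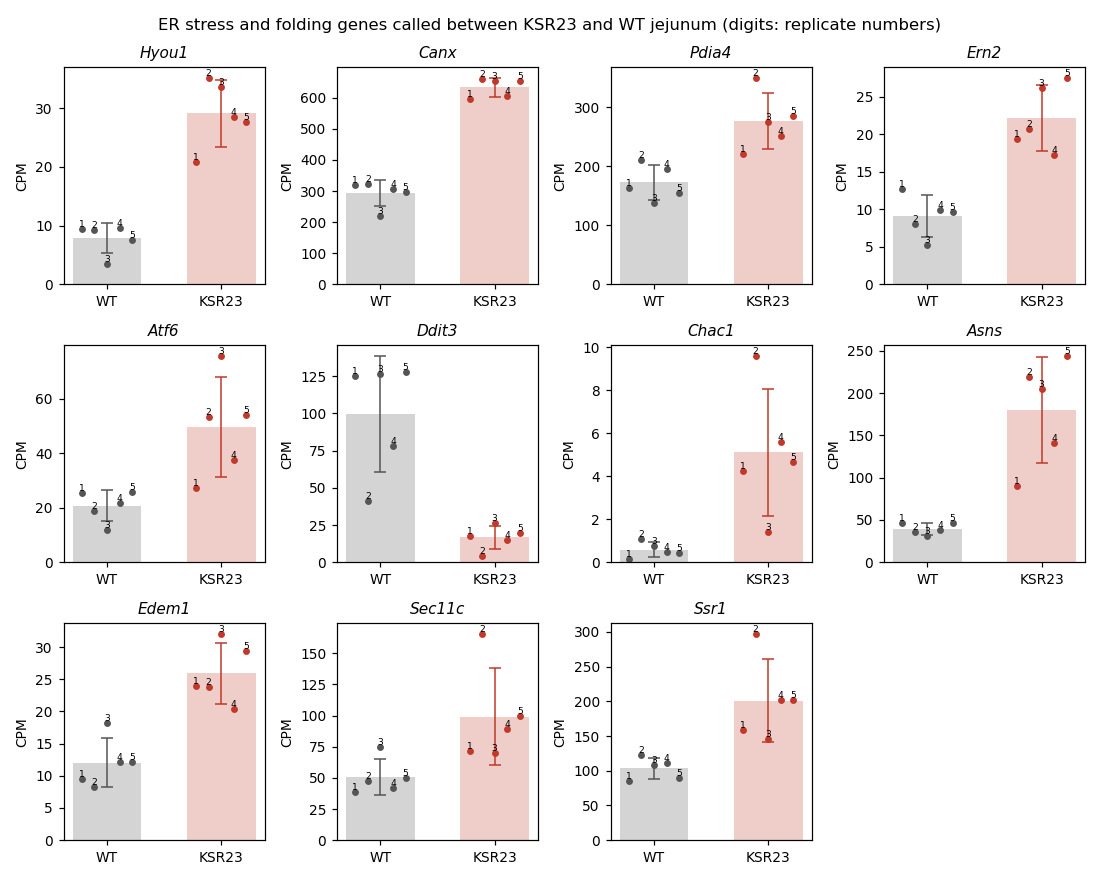
CPM of the 11 members called between the groups, with 1 point for each library (digits give the replicate number), bars for the group mean and error lines for the SD (n = 5 each). All panels start at 0. KSR23 points lie above all WT points in 9 panels, below them for Ddit3, and overlap them for Sec11c.

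To place these members among other genes, 11 further lists were counted. Of these, 8 covered ER and eIF2 functions. The rest lay outside the pathway: cytosolic and mitochondrial chaperones, COPII and Golgi transport, and handling and immediate early genes. In the 8 lists on ER and eIF2 functions together, 152 genes that are no members were tested, of which 26 were called higher and 9 lower. Over all genes 9.74% were called higher and 8.76% lower, and 12.9% and 8.05% over those with a mean above 5 CPM. The same shares apply to each list below. The median log2 fold change of the 152 was 0.18, near the 0.13 of genes with a mean above 5 CPM. With the Y-linked covariate the counts of the 152 were 5 higher and 8 lower, and with the replicate number as a block 17 higher and 5 lower, or 9 and 5 by the F test. All genes called in either direction fell from 3262 to 1797 with the covariate and to 2202 with the block, or 1184 by the F test. In replicates 1 to 3 alone the counts of the 152 were 4 higher and 1 lower (1.95% and 1.31% of all genes), or 0 and 1 by the F test. At the translocon and signal peptidase, 4 of 20 genes were called higher and 2 lower. Sec61a1, the pore itself, rose from 216 ± 40.8 to 758 ± 226 CPM (log2 fold change 1.81, adjusted p = 5.07e-08), and Sec62, a translocon partner for short precursors, fell from 223 ± 48.1 to 109.6 ± 27.7 CPM (log2 fold change -1.03, adjusted p = 0.00252). Of 18 genes of the oligosaccharyltransferase and of glycan quality control, 3 were called higher and 0 lower by the likelihood ratio test, while the F test called 2 higher. Uggt1, the sensor that sends misfolded glycoproteins back to calnexin and calreticulin, rose from 23.7 ± 7.03 to 51.1 ± 8.26 CPM (log2 fold change 1.11, adjusted p = 0.00278).

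Among 17 other ER oxidoreductases, 3 were called higher (2 by the F test) and 1 lower. Agr2, a goblet cell isomerase needed for mucin, rose from 287 ± 28.7 to 649 ± 179 CPM (log2 fold change 1.18, adjusted p = 1.79e-04), and Tmx3 rose from 24.5 ± 6.48 to 49.3 ± 13.4 CPM (log2 fold change 1.01, adjusted p = 0.0128). Pdia2, an isomerase known for its expression in the pancreas, fell from 24.3 ± 2.24 CPM in WT to between 0.903 and 3.78 CPM in the KSR23 libraries (log2 fold change -3.54, adjusted p = 3.61e-17). Transcripts of pancreatic acinar cells were also lower in KSR23: of 19 listed, 13 were tested, 9 were called lower and 1 higher (7 and 1 by the F test), and their summed level was 103 to 236 CPM in WT and 10.3 to 20.9 CPM in KSR23, with Amy2a5 and Ptf1a at 0 counts in all libraries. The most abundant was Ctrb1, at 82.2 CPM in WT and 0.269 CPM in KSR23, and the 1 that rose was Bhlha15, a factor of secretory cells. Among 19 other chaperones and prolyl isomerases, 2 were called higher and 2 lower, with Dnajc10 rising from 35.2 ± 3.63 to 81.7 ± 15.8 CPM (log2 fold change 1.21, adjusted p = 7.17e-05), and Fkbp7 and Cnpy2 falling by 1.51 and 1.14 on the log2 scale. Of 21 other degradation genes, 1 was called higher (Edem3, whose groups overlapped) and 0 lower.

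Of 36 other targets of ATF4 and CHOP that were tested, 10 were called higher and 4 lower (F test, 10 and 3), with a median log2 fold change of 0.33. Of those that rose without overlap, 3 are given with their values. Slc7a5, a subunit of the transporter of large neutral amino acids, rose from 1.80 ± 0.596 to 6.69 ± 1.56 CPM (log2 fold change 1.89, adjusted p = 2.64e-06). The serine and glycine enzymes Shmt2 and Psat1 rose from 24.0 ± 2.64 to 85.4 ± 32.6 CPM (log2 fold change 1.83, adjusted p = 2.59e-07) and from 12.7 ± 3.51 to 43.3 ± 16.0 CPM (log2 fold change 1.77, adjusted p = 3.56e-05). Among the 7 aminoacyl-tRNA synthetase genes of this list, a subset picked after its values were seen, Aars, Nars, Wars and Yars were called higher, by 0.95 to 1.25 on the log2 scale. The 4 that fell were Rcan1, Stc2, Gdf15 and Bcl2l11. The groups overlapped for Gdf15 and Bcl2l11 and not for Rcan1 and Stc2, which had log2 fold changes of -1.06 (adjusted p = 0.00309) and -0.69 (adjusted p = 0.0482), and the call of Stc2 was lost in the 8 libraries (log2 fold change -0.69, adjusted p = 0.0749) and when any 1 library other than WT replicate 3 or KSR23 replicate 3 was left out (log2 fold change -0.76 to -0.59 over all 10). In replicates 1 to 3 alone, Slc7a5, Shmt2 and Psat1 passed the likelihood ratio test (adjusted p = 0.0401, 0.0496 and 0.0473) and did not pass the F test, and the call of Psat1 was also lost with the Y-linked covariate, at 1.35 (adjusted p = 0.0908).

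Of 15 genes of the eIF2 kinases, phosphatase and initiation factors, 3 were called higher and 0 lower, and in each of the 3 the groups overlapped. Of 8 membrane-bound transcription factors and their proteases, the likelihood ratio test called 0 (1 at an unadjusted p under 0.05) and the F test 1 higher. Of 24 cytosolic and mitochondrial chaperones, the likelihood ratio test called 1 higher (Bag3) and the F test 0 (8 at an unadjusted p under 0.05). Of 27 genes of COPII and Golgi transport, 5 were called higher (4 by the F test) and 0 lower. Sec24c, a cargo adaptor of the vesicles that leave the ER, rose from 156 ± 43.0 to 359.8 ± 127 CPM (log2 fold change 1.20, adjusted p = 0.00294), with Sec16a and Sec31a at log2 fold changes of 0.83 and 0.81. The call of Sec16a was lost without WT replicate 5, at 0.84 (adjusted p = 0.0508), or KSR23 replicate 5, at 0.78 (adjusted p = 0.0575), and that of Sec31a without WT replicate 1, at 0.71 (adjusted p = 0.066), or WT replicate 5, at 0.74 (adjusted p = 0.0838). The calls of Sec16a and Sec31a were also lost with library totals alone and with the replicate number as a block. With the block those of Tmx3 and Stc2 were lost as well, and by the F test with the block those of Uggt1 and Sec24c too. The list of 12 handling and immediate early genes was counted because the handling of tissue can alter such genes. Among them, 2 were called higher, Fos from 16.2 ± 5.94 to 127 ± 84.4 CPM (log2 fold change 2.97, adjusted p = 3.91e-08) and Zfp36 from 103 ± 26.0 to 267 ± 112 CPM (log2 fold change 1.38, adjusted p = 5.61e-04). The part of handling in the members' changes was not tested. Of the 19 genes named from the lists by rule, 10 lost their call with the Y-linked covariate (Uggt1, Agr2, Tmx3, Psat1, Rcan1, Stc2, Sec24c, Sec16a, Sec31a and Zfp36). Their log2 fold changes there were 0.996 for Uggt1, 0.84 for Agr2, 1.05 for Tmx3, 1.35 for Psat1, -0.97 for Rcan1, -0.57 for Stc2, 1.25 for Sec24c, 0.98 for Sec16a, 0.69 for Sec31a and 1.10 for Zfp36. In replicates 1 to 3 alone, 6 of the 19 passed the likelihood ratio test (Sec61a1, Pdia2, Slc7a5, Shmt2, Psat1 and Fos) and 1 the F test (Pdia2).

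**Figure D4:**
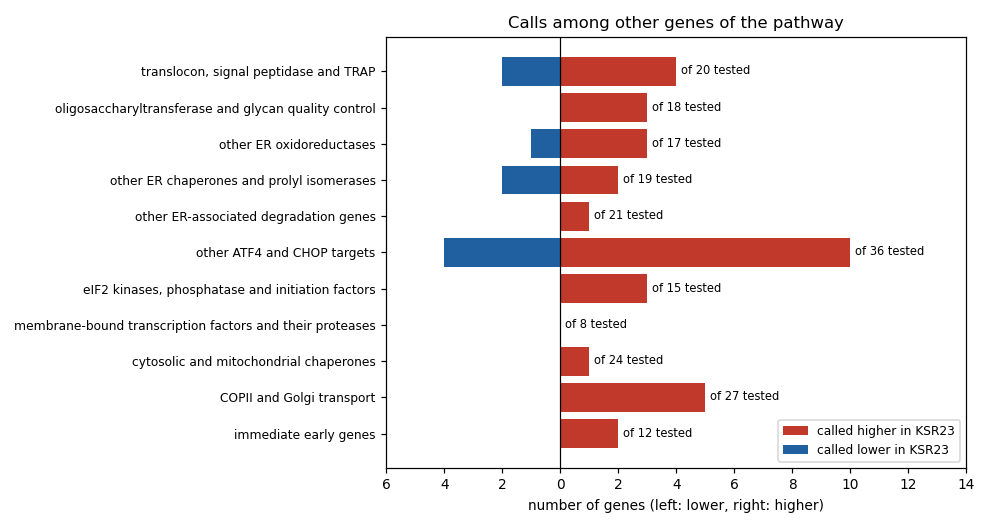
Number of genes called higher (red, to the right) and lower (blue, to the left) in KSR23 jejunum in 11 lists of other genes, with the number tested beside each bar. The lists of cytosolic and mitochondrial chaperones, of COPII and Golgi transport and of handling and immediate early genes (labelled immediate early genes) lie outside the pathway. The list of ATF4 and CHOP targets has the longest bars, 10 higher and 4 lower of 36, and no bar is drawn for the 8 membrane-bound transcription factors and proteases.

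Other cell types in the tissue were measured by the same lists of markers. Of 11 enterocyte genes, 3 were called higher and 3 lower (F test, 3 and 1). Their summed level was 96705 to 203225 CPM in WT and 65027 to 116345 CPM in KSR23, so that markers of the intestinal epithelium were abundant in every library. Of 7 smooth muscle genes 1 was called lower, or 0 by the F test with 4 at an unadjusted p under 0.05 (summed level 2005 to 4272 CPM in WT and 1929 to 2667 CPM in KSR23), and of 8 leukocyte genes 2 were called higher, or 1 by the F test (summed level 633 to 740.4 CPM in WT and 494 to 679 CPM in KSR23). Of 7 hepatocyte genes, several of which the gut also expresses, 1 was called higher and 3 lower, or 1 and 2 by the F test (summed level 2448 to 4124 CPM in WT and 1600.3 to 5107 CPM in KSR23). The summed level of the plasma cell list was 55.6 to 335 CPM in WT and 122 to 626 CPM in KSR23. Their part in the members' changes was not tested.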

How the data were processed

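Jejunum RNA of 5 WT and 5 KSR23 mice was sequenced with a low-input kit. Per the labels, 100 pg of total RNA was primed with oligo-dT and amplified by 15 cycles of PCR, followed by 12 cycles after tagging, and read from 1 end for 75 bases. The kit uses no molecular identifiers and does not mark strand.

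The authors mapped the reads to mm10 with TopHat2 2.1.0 and deposited the counts of reads lying strictly within gene models (HTSeq 0.6.1p1), as whole numbers for 24062 genes, not normalized. Versions are those of the submitters' processing notes. Reads with several alignments (8.62 to 17.1 M per library, M for 1000000) entered no gene.

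Here the counts were scaled with TMM factors and compared in edgeR 4.0.16 (R 4.3.3) by the likelihood ratio test, the test of the study, with the group as the only term, on the 17632 genes that reached 5 counts in any library. P-values of this test, and of the quasi-likelihood F test beside it, were corrected over all genes (Benjamini-Hochberg). SE and 95% intervals come from the model and 3 counts, the floor of detection, equal 0.0427 to 0.119 CPM. Alternatives were DESeq2 1.42.0, other scalings and filters, thinned counts, a replicate block, Y-linked counts as a covariate, replicates 1 to 3 alone and leaving out each library. The 8-library and 6-library fits, and the F test with the replicate block and on replicates 1 to 3, were added after seeing the data. The fits were tested on simulated data.

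The members and lists were chosen with earlier results of these data known. Values in every library are given for members called without overlap, and for Ern1, Ern2, Eif2ak3, Atf6, Xbp1, Atf4 and Hspa5; P4hb, Pdia3, Calr and Sec11c were added after their values were seen. Of each pathway list, up to 3 called genes in each direction without overlap are named, if each library of the higher group held at least 5 counts; the names of the 4 synthetases, of Edem3, Bag3, Gdf15 and Bcl2l11 were added later, as were those of marker genes with a call. Gene positions and transcript lengths are from GENCODE M21 (mm10, 1-based), and promoters from RefSeq (GRCm38.p6, 33 of 40 members matched). A window that GENCODE counts as exon was kept to 30 bases.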

Additional observations from a re-analysis of the deposited data

Results flagged for a closer look

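Gaps between an end value and its neighbour were taken on the scale of log2(CPM + 0.5), while the values below are printed as CPM. Over 80 groups of 5 libraries (40 members in 2 groups), this gap exceeded the Dixon limit of 0.71 of the range in 4 groups, where about 4 are expected by chance (1 in 20). In WT, replicate 3 was the low end 3 times: for Hyou1 (3.52 CPM, the others 7.51 to 9.56), for Canx (221 CPM, the others 295 to 323) and for Selenbp1 (48.1 CPM, the others 56.8 to 58.7). In KSR23, replicate 3 was low for Syvn1 (4.89 CPM, the others 26.7 to 50.2). Without WT replicate 3, the log2 fold changes of Hyou1 and Canx were 1.71 (adjusted p = 1.83e-06) and 1.02 (adjusted p = 2.54e-04), both still called higher.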

How the results depend on the processing

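Members called higher numbered 10 on all libraries, 9 to 10 with the other scalings, filters, thinned counts, DESeq2 and the F test, 10 to 11 in the 8 and 6 libraries, and 8 to 13 when a library was left out. They fell to 5 with Y-linked counts as a covariate (Pdia4, Atf6, Edem1, Sec11c and Ssr1 lost), to 3 in replicates 1 to 3 alone and to 0 there by the F test. The 1 member called lower, Ddit3, was lost in that last setting (0 called) and was joined by Spcs1 with library totals alone (2 called). The Y-linked counts ranged from 492 to 6347 in WT and from 1 to 9035 in KSR23, where 3 of 5 libraries had 9 or fewer, and the sex of the mice is not in the labels. All genes called numbered 3262, and 1797 with the Y-linked covariate, 575 in replicates 1 to 3 alone, 137 there by the F test, and 2368 to 3795 with a library left out. The other genes of the 8 ER and eIF2 lists went from 26 higher and 9 lower to 5 and 8 with the covariate, to 4 and 1 in replicates 1 to 3 alone and to 0 and 1 there by the F test, and ran from 20 to 35 and 6 to 9 with a library left out. The cause of these shifts was not tested.

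Same-numbered libraries did not deviate together (correlations -0.55, 0.25, -0.46, 0.11 and 0.22 for numbers 1 to 5), so the numbers were not taken as pairs. With the number as a replicate block, 7 members were called higher and 1 lower (F test, 5 and 1). Pdia4, Atf6 and Sec11c were lost with log2 fold changes of 0.68 (adjusted p = 0.131), 1.22 (adjusted p = 0.0559) and 0.95 (adjusted p = 0.0819), against 0.68, 1.26 and 0.98 without the block, and by the F test Ern2 and Ssr1 too, at 1.32 (adjusted p = 0.0522) and 0.93 (adjusted p = 0.0523). All genes called numbered 2202 with the block and 1184 with the block by the F test, and the other pathway genes 17 and 9 higher and 5 and 5 lower.

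Directions turned only for members that were not called. With the replicate block (likelihood ratio and F test), the log2 fold change of Dnajc3 was -0.00097 and -0.00037 and that of Xbp1 -0.067 and -0.066. In replicates 1 to 3 alone (both tests), Dnajc3 was at -0.080 and -0.080, Eif2ak3 at -0.043 and -0.042, and Derl3 at -0.15 and -0.15. With library totals alone Sdf2l1 was at 0.033 and Pdia3 at 0.017, with the Y-linked covariate Sdf2l1 was at 0.056, Manf at -0.0063 and Ostc at -0.13, and in 6 libraries (WT replicates 1 and 5 and KSR23 replicates 3 and 5 left out) Sdf2l1 was at 0.037 and Pdia3 at 0.058. With a library left out, the ranges were -0.24 to 0.62 for Dnajc3, -0.46 to 0.44 for Sdf2l1, -0.46 to 0.28 for Pdia3, -0.11 to 1.06 for Xbp1, -0.50 to 0.016 for Trib3, -0.022 to 0.50 for Derl1, -0.15 to 0.66 for Derl3 and -0.41 to 0.0043 for Sec61b. In the 6 libraries Pdia4 and Edem1 lost their calls and Dnajb9, Ppp1r15a and Syvn1 gained one. The 13 members that were low in WT replicate 1 and KSR23 replicate 3 had a median standard error of 0.57 on the log2 scale, so that a 2-fold change would lie within the 95% interval around 0.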
